A study of Mus musculus with 12 samples.

Results

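Marrow of burned mice whose granulocyte colony-stimulating factor (G-CSF) was neutralised was compared with marrow of sham mice, gene by gene. The 8 libraries compared, of 12 in the series, were taken by their labels: 4 labelled burn with anti-G-CSF antibody (replicates 9 to 12) and 4 labelled sham with isotype antibody (replicates 1 to 4). All mice were C57BL/6J females aged 8 weeks, and RNA came from whole marrow cells taken on day 7 after injury. The injury was a flame burn. The antibody, anti-G-CSF or its isotype control, was started 12 hours ahead of injury, repeated at injury and then given daily. A further 4 libraries from burned mice with the isotype antibody (replicates 5 to 8) entered the model and are given beside the results. Because injury and antibody both differ between the groups compared, their parts cannot be told apart here, and sham mice with anti-G-CSF were not analysed here. The labels do not say that each library came from its own mouse, so p-values reflect how these libraries vary, and that variation may be technical.

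G-CSF is a secreted cytokine that binds the receptor encoded by Csf3r on granulocyte precursors and neutrophils. The receptor has no kinase of its own and signals through Janus kinases and the transcription factor Stat3, with Socs3 as a feedback inhibitor. In marrow it drives precursors to divide and mature into neutrophils and releases mature neutrophils into the blood. Marrow also makes red cells, which mature around erythroblastic island macrophages marked by the transcription factor Spi-C and the adhesion molecule Vcam1.

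The 8 libraries held 18780399 to 23124232 gene counts each. Of 24415 genes 15283 passed the expression filter and were tested with edgeR's quasi-likelihood test, and a gene was called when its Benjamini-Hochberg adjusted p was under 0.05. Levels are CPM, counts scaled to library depth, changes are log2 fold changes of burn with anti-G-CSF over sham with their SE, and errors of means are SD over 4 libraries. Among the tested genes 1083 were called higher, 7.09% of those tested, and 598 were called lower, 3.91%. The median change over all tested genes was -0.0047. The 4 anti-G-CSF libraries all lay above the 4 sham libraries for 10.1% of tested genes and all below for 6.96%. In whole marrow, fewer cells of a type and less RNA per cell cannot be told apart.

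Transcripts of brain, heart and eye lens stood apart in these libraries and are given before the marrow genes. The summed level of 19 brain genes was 745, 804, 875 and 807 CPM in sham replicates 1 to 4 and 1745, 1142, 1208 and 2196 CPM in anti-G-CSF replicates 9 to 12. All 4 anti-G-CSF libraries lay above all 4 sham libraries, and replicates 9 and 12 lay highest. The share of counts on Rn45s, the ribosomal RNA precursor, was 0.163%, 0.146%, 0.134% and 0.124% in sham and 0.259%, 0.182%, 0.208% and 0.319% in anti-G-CSF. The groups did not overlap, replicates 9 and 12 were again highest, and the part of this share in the results was not tested. The 14 heart genes summed to 459 ± 36.8 CPM in sham and 983 ± 341 CPM in anti-G-CSF, and the 16 lens genes to 124 ± 13.5 and 276 ± 101 CPM.

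Camk2a, a kinase of neuronal synapses, measured 98.3, 106, 117 and 103 CPM in sham replicates 1 to 4 and 281, 173, 174 and 344 CPM in anti-G-CSF replicates 9 to 12. Myh6, the cardiac myosin heavy chain, measured 90.5, 96.7, 106 and 90.9 CPM in sham and 274, 159, 162 and 311 CPM in anti-G-CSF. Cryaa, a lens crystallin, measured 27.0, 37.4, 39.4 and 33.8 CPM in sham and 94.9, 59.5, 56.7 and 126 CPM in anti-G-CSF. For these 3 genes the groups did not overlap, and the order of the anti-G-CSF libraries put replicates 12 and 9 first. Their changes were 1.19 ± 0.29, 1.24 ± 0.30 and 1.29 ± 0.32 (edgeR adjusted p = 0.0266, 0.0256 and 0.0275), and each call was lost without replicate 1, 2, 4, 9 or 12.

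Of the lists, 15 of 19 brain genes, 11 of 14 heart genes and 10 of 16 lens genes were called higher, with medians of 1.18, 1.20 and 1.11. Over all tested genes 7.09% were called higher and 3.91% lower. The brain count was 1 without replicate 1, 2 or 9, 2 without replicate 12 and 7 without replicate 4. The heart count was 0 without replicate 1, 9 or 12, 1 without replicate 2 and 3 without replicate 4, and the lens count was 3, 5, 5, 4 and 4 without replicates 1, 2, 4, 9 and 12. The 4 burn libraries with isotype antibody summed to 979, 632, 1297 and 1158 CPM for the brain genes, so replicate 6 lay below every sham library. Skeletal muscle genes gave 5 of 12 called higher, of which the heart and muscle oxygen carrier Mb rose by 1.26 ± 0.32 (edgeR adjusted p = 0.0298), a call lost without replicate 1, 2, 3, 4, 9 or 12. The muscle count was 1 without replicate 1, 2, 9 or 12 and 2 without replicate 3 or 4. Liver genes gave 2 of 7, the plasma protein genes Ttr and Alb, and Ttr rose from 296 ± 27.6 to 723 ± 258 CPM, a call lost without replicate 1, 2, 9 or 12. Ttr is also made by the choroid plexus of the brain. Lung genes gave 2 of 7 called higher with a median of 1.19, but their sum was 203 ± 15.8 CPM in sham and 198 ± 20.7 CPM in anti-G-CSF. The lung count was 0 without replicate 1, 2, 4, 9 or 12 and 1 without replicate 3. Of the 17 tested stroma genes, which mark the connective tissue of marrow, 4 were called higher and 1 lower, Csf1, the higher ones including Lum, a collagen-binding proteoglycan (1.53 ± 0.28, edgeR adjusted p = 0.00705), and the count called higher was 1 without replicate 1, 4, 9 or 12 and 2 without replicate 2 or 3.

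**Figure D1:**
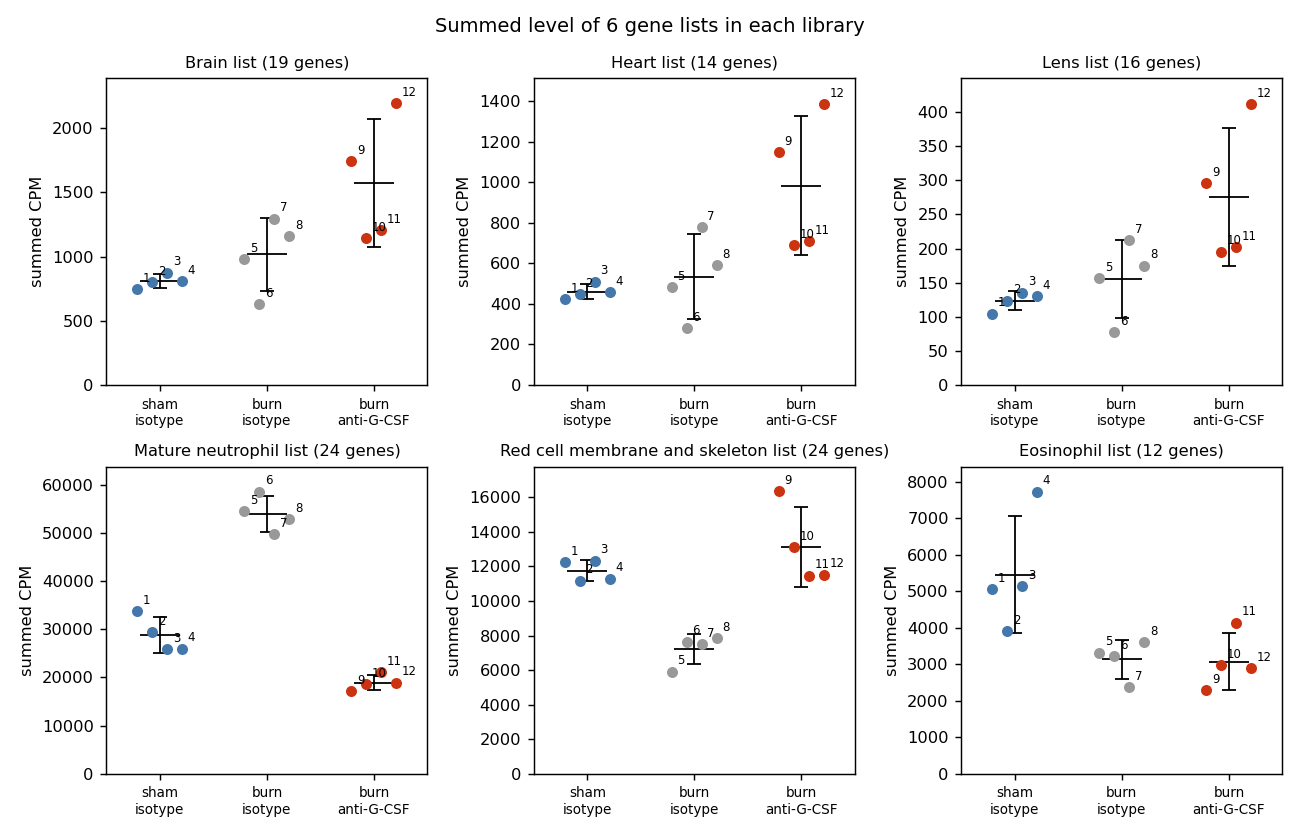
Summed CPM of the brain, heart, lens, mature neutrophil, red cell membrane and eosinophil lists (y axis) in each library, numbered by replicate, with the mean and SD of each group of 4. The brain sums of replicates 9 to 12 run from 1142 to 2196 CPM against 745 to 875 CPM in sham, and replicate 9 has the highest red cell membrane sum at 16378 CPM.

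A brain score, which averages the log2 CPM of the 19 brain genes in a library, ran from 4.49 to 4.82 in sham and from 5.27 to 6.22 in anti-G-CSF. A gene was said to follow the score when, within groups, it rose by over 0.5 log2 units per unit of the score with a limma adjusted p under 0.05, so the difference between groups did not choose it. By that rule 1282 of 15283 genes followed it, 8.39%, of which 1265 were not brain genes of the score. The other 17 are part of the score, so their slopes were largely fixed in advance. The counts of followers below do not leave out brain genes of the score. Of the 1083 genes called higher 728 followed it, 67.2%, and of the 768 that were also over 2-fold higher 593 did, 77.2%. Of the 598 genes called lower 0 followed it. The rule took rising slopes only, so it could not pick a gene that falls as the score rises. This 0 therefore does not show that the lower genes were unrelated to the score. The median slope was -0.22 for the mature neutrophil list and -0.22 for the secondary and tertiary granule list, against -0.037 over all tested genes. Some other marrow lists had steeper negative medians, such as T cell genes (-0.47) and mature B genes (-0.39). Others lay nearer to no slope, such as red cell membrane genes (0.015). Genes that followed the score took 1.21% ± 0.106 of counts in sham, 1.33% ± 0.488 in burn with isotype antibody and 2.52% ± 0.822 in anti-G-CSF. The other 14001 genes held 355 called higher, 2.54% of them. With the brain score as a covariate 10 genes were called higher, 0.0654% of those tested, and 2 lower, 0.0131%. The median SE over genes rose from 0.132 to 0.179. In that fit 838 of 15283 genes had an unadjusted edgeR p under 0.05, 427 of them higher and 411 lower. Where no gene differs, a share of about 0.05 of genes reaches an unadjusted p under 0.05. All 598 genes called lower kept a negative sign in that fit. Without replicates 9 and 12 the counts were 18 higher (0.118%) and 17 lower (0.111%), of which 17 and 17 were also called with all libraries.

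**Figure D2:**
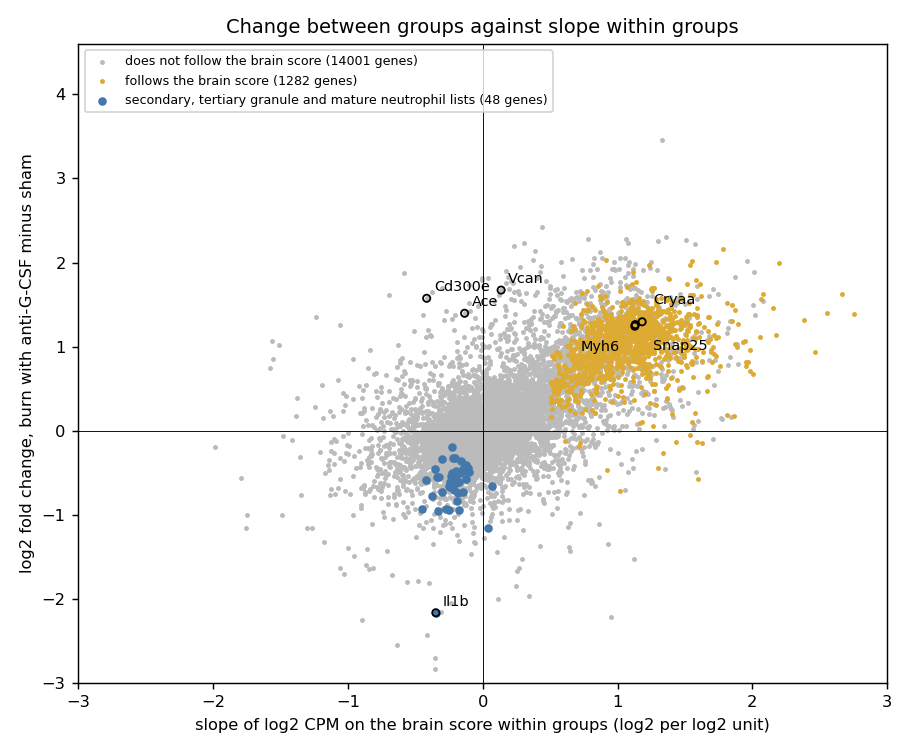
Each tested gene's change between groups (y axis, log2 fold change of burn with anti-G-CSF over sham) against its slope on the brain score within groups (x axis, log2 CPM per unit of the score). The 1282 genes that follow the score lie to the right and mostly between changes of 0 and 2, the 48 secondary and tertiary granule and mature neutrophil list entries lie below 0, and Vcan, Ace and Cd300e lie above 1 and do not follow the score.

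The G-CSF receptor gene itself was lower than in sham. Csf3r (chromosome 4, 126024659 to 126044975, plus strand, mm10) measured 439.5, 392, 460.3 and 506 CPM in sham replicates 1 to 4 and 188, 262, 278 and 206 CPM in anti-G-CSF replicates 9 to 12. The highest anti-G-CSF library lay below the lowest sham library. The fall was 0.94 on the log2 scale (log2 fold change -0.94 ± 0.12, edgeR adjusted p = 0.000491). It was called without each of the 8 libraries in turn and without replicates 9 and 12 together (-0.73, edgeR adjusted p = 0.00540), and missed the threshold with the brain score as a covariate (-0.77, edgeR adjusted p = 0.0835). Burned mice with isotype antibody had 640.3 ± 45.1 CPM, so the group means ran, from low to high, anti-G-CSF, sham and burn with isotype antibody.

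Csf3, the gene of the cytokine, was barely counted in whole marrow: 2 counts in sham replicate 1 and 0 in the other 7 libraries, where a count of 0 allows up to 3. Of 19 genes of G-CSF receptor signalling 3 were called lower and 1 higher, with a median of -0.19, against 3.91% of all tested genes called lower. The lower count was 7 without replicate 11, 5 with the 20 most abundant genes left out of scaling, 1 without replicates 9 and 12 together and 0 when the brain score was a covariate. The 3 were Csf3r, Junb and Cebpd. Junb, an AP-1 transcription factor, went from 52.7 ± 2.65 to 35.7 ± 2.56 CPM (-0.56 ± 0.09, edgeR adjusted p = 0.00392). Cebpd, a C/EBP transcription factor, changed by -0.77 ± 0.16 (edgeR adjusted p = 0.0143), a call lost without replicate 1 (-0.68, edgeR adjusted p = 0.0510). The gene called higher was Cish, an inhibitor of cytokine receptor signalling, at 8.88 ± 1.1 CPM in sham and 14 ± 2.28 CPM in anti-G-CSF (0.66 ± 0.15, edgeR adjusted p = 0.0175), a call lost without replicate 1 or 2.

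Socs3, the feedback inhibitor of the receptor, measured 12.7 ± 3.45 CPM in sham and 9.67 ± 2.08 CPM in anti-G-CSF, and its change of -0.39 ± 0.18 did not pass the test (edgeR adjusted p = 0.198). Stat3 measured 174 ± 5.36 and 145 ± 18.0 CPM. Its libraries did not overlap, but its change of -0.26 ± 0.10 missed the threshold (edgeR adjusted p = 0.0917) and passed it without replicate 11. In burn with isotype antibody Socs3 measured 36.1 ± 5.01 CPM and Stat3 285 ± 36.3 CPM.

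The 250 bases ahead of a listed transcript start of Csf3r and of 3 genes described below are shown. These genes stand for the receptor, the neutrophil granules, the monocyte gene with the smallest p and the red cell genes. The RefSeq genes of Csf3r and Vcan reach further upstream, to 126023441 and 89743027, so those 2 windows lie within them. Sequences are from RefSeq (GRCm38.p6), 5′ to 3′ on the gene's strand. Capitals mark matches on either strand to a C/EBP motif (TTNNGCAA), a PU.1 motif (GAGGAA) or a GATA motif (AGATAA).
Csf3r, chr4:126024409-126024658, plus strand: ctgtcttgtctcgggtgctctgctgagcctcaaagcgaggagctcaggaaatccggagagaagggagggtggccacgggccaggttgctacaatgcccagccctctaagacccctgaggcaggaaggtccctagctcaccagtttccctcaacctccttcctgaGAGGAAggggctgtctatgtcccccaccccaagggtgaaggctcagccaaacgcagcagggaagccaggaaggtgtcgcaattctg
Ngp, chr9:110419558-110419807, plus strand: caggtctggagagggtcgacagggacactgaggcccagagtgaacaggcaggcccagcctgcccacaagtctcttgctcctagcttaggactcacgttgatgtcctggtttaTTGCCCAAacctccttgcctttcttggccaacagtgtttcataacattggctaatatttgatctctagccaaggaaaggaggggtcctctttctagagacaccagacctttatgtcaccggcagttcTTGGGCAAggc
Vcan, chr13:89742513-89742762, minus strand: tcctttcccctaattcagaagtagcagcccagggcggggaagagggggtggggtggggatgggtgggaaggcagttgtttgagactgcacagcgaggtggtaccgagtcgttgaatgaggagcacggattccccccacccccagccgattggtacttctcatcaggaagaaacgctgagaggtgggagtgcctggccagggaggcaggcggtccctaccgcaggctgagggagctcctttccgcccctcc
Alas2, chrX:150547167-150547416, plus strand: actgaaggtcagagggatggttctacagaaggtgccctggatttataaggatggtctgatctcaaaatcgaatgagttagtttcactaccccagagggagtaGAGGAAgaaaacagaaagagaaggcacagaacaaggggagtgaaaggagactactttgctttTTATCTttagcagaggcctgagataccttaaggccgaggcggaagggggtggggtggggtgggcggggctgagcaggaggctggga
Csf3r held 1 PU.1 match, which began 86 bases before the start. Ngp held 2 C/EBP matches, at 138 and 11 bases. Alas2 held 1 PU.1 match at 148 bases and 1 GATA match at 86 bases, and Vcan held none of these letters in the window. Among 12042 promoters of tested genes of the same length, 7.68% held the C/EBP letters, 22.9% the PU.1 letters and 6.24% the GATA letters. Among the secondary and tertiary granule genes 5 of 19 promoters held the C/EBP letters, 12 of 19 the PU.1 letters and 4 of 19 the GATA letters. In the same order the counts were 3, 9 and 2 of 21 mature neutrophil promoters and 2, 7 and 2 of 14 nonclassical monocyte promoters. They were 0, 4 and 1 of 13 heme synthesis promoters. A match describes the sequence and shows no bound factor.

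Neutrophil genes were lower than in sham marrow across the granule stages and in the mature cell. Neutrophil precursors first fill primary granules, then secondary and tertiary granules, and finish with the surface receptors of the mature cell. Of 24 mature neutrophil genes 22 were called lower and 0 higher, with a median change of -0.66. Of 24 secondary and tertiary granule genes 21 were called lower and 0 higher, with a median of -0.59. Of 14 primary granule genes 9 were called lower and 1 higher, with a median of -0.36. Over all tested genes 3.91% were called lower.

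The 3 lists differed in how firmly their counts held. The mature neutrophil count ran from 15 to 24 with 1 library left out. The secondary and tertiary granule count ran from 11 to 22, and was 12 without replicate 1 or 2 and 11 without replicate 9. The primary granule count was 1 without replicate 1, 2 or 9, 2 without replicate 12, 3 without replicate 4 and 5 without replicate 10. Without replicates 9 and 12 together 3, 2 and 0 genes of the mature, secondary and primary lists were called lower, with medians of -0.51, -0.43 and -0.26. All 24 mature and all 24 secondary and tertiary genes were negative in that fit. With the brain score as a covariate 0, 1 and 0 were called, with medians of -0.42, -0.35 and -0.23.

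S100a8, an antimicrobial calcium-binding protein and one of the most abundant neutrophil transcripts, measured 13901, 11909, 10266 and 10158 CPM in sham replicates 1 to 4 and 7452, 7646, 8231 and 7674 CPM in anti-G-CSF replicates 9 to 12. The groups did not overlap, and the fall was 0.58 on the log2 scale (-0.58 ± 0.11, edgeR adjusted p = 0.00801). Ngp, neutrophilic granule protein, measured 9818, 9429, 7705 and 8070.3 CPM in sham and 4415, 5378, 6449 and 5801 CPM in anti-G-CSF. Its change was -0.67 ± 0.13 (edgeR adjusted p = 0.00968), and replicate 9 was the lowest library. Lcn2, a secondary granule protein that binds bacterial iron carriers, went from 2688 ± 168 to 1712 ± 286 CPM (-0.65 ± 0.12). Burn with isotype antibody had 22675 ± 1069.7 CPM of S100a8 and 5402 ± 752 CPM of Lcn2, the highest group mean for both.

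Cxcr2, the chemokine receptor that draws mature neutrophils out of marrow, measured 319.5, 284, 331 and 308 CPM in sham and 112, 157, 204 and 174 CPM in anti-G-CSF. It fell by 0.94 (-0.94 ± 0.14, edgeR adjusted p = 0.00392), and still passed without replicates 9 and 12 (-0.78, edgeR adjusted p = 0.00748). Among the other mature genes, Ifitm6 changed by -0.75 ± 0.12 and Il1r2, the decoy receptor for interleukin 1, by -0.93 ± 0.19, the latter a call lost without replicate 1 (edgeR adjusted p = 0.0513). Of the 9 tested genes of neutrophil retention and release 4 were called lower, against 3.91% of all tested genes, and the count was 2 without replicate 1, 2, 4, 9 or 12. Cxcr4, the receptor that holds neutrophils in marrow, was among them at -0.34 ± 0.09, with overlapping libraries and a call lost without replicate 1, 2, 4, 9 or 12. Cxcl12, its ligand, showed a change of 0.01.

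In the granule lists, Wfdc21, a protease inhibitor-like secreted protein, went from 240 ± 28.6 to 144 ± 9.54 CPM (-0.73 ± 0.10, edgeR adjusted p = 0.000963). It passed without each library in turn and without replicates 9 and 12 (-0.70). Cd177, a neutrophil surface glycoprotein, changed by -0.71 ± 0.13, the integrin gene Itgb2l by -0.59 ± 0.10 and Pglyrp1, a bactericidal peptidoglycan-binding protein, by -0.64 ± 0.12, each called without each library in turn. In the primary granules Mpo, myeloperoxidase, went from 1203 ± 60.9 to 933 ± 134 CPM (-0.37 ± 0.10, edgeR adjusted p = 0.0291), a call lost without replicate 1, 2, 4, 9 or 12. Serpinb1a, an inhibitor of the granule proteases, changed by -0.49 ± 0.10 and kept its call without each library. Ctsc, the protease that activates the granule proteases, rose from 152 ± 24.2 to 217 ± 14 CPM (0.52 ± 0.13, edgeR adjusted p = 0.0256), a call lost without replicate 2, 3, 4, 9 or 12.

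Among 10 granulocyte transcription factors 3 were called lower, against 3.91% of all tested genes, with a median of -0.20. Cebpe, needed for secondary granule formation, went from 109 ± 7.77 to 70.1 ± 10.4 CPM (-0.64 ± 0.12, edgeR adjusted p = 0.00731). Spi1, which encodes PU.1, changed by -0.45 ± 0.12 (edgeR adjusted p = 0.0256), a call lost without replicate 1, 2, 4, 9 or 12. Cebpd is given above, and the count was 1 without replicate 1.

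**Figure D3:**
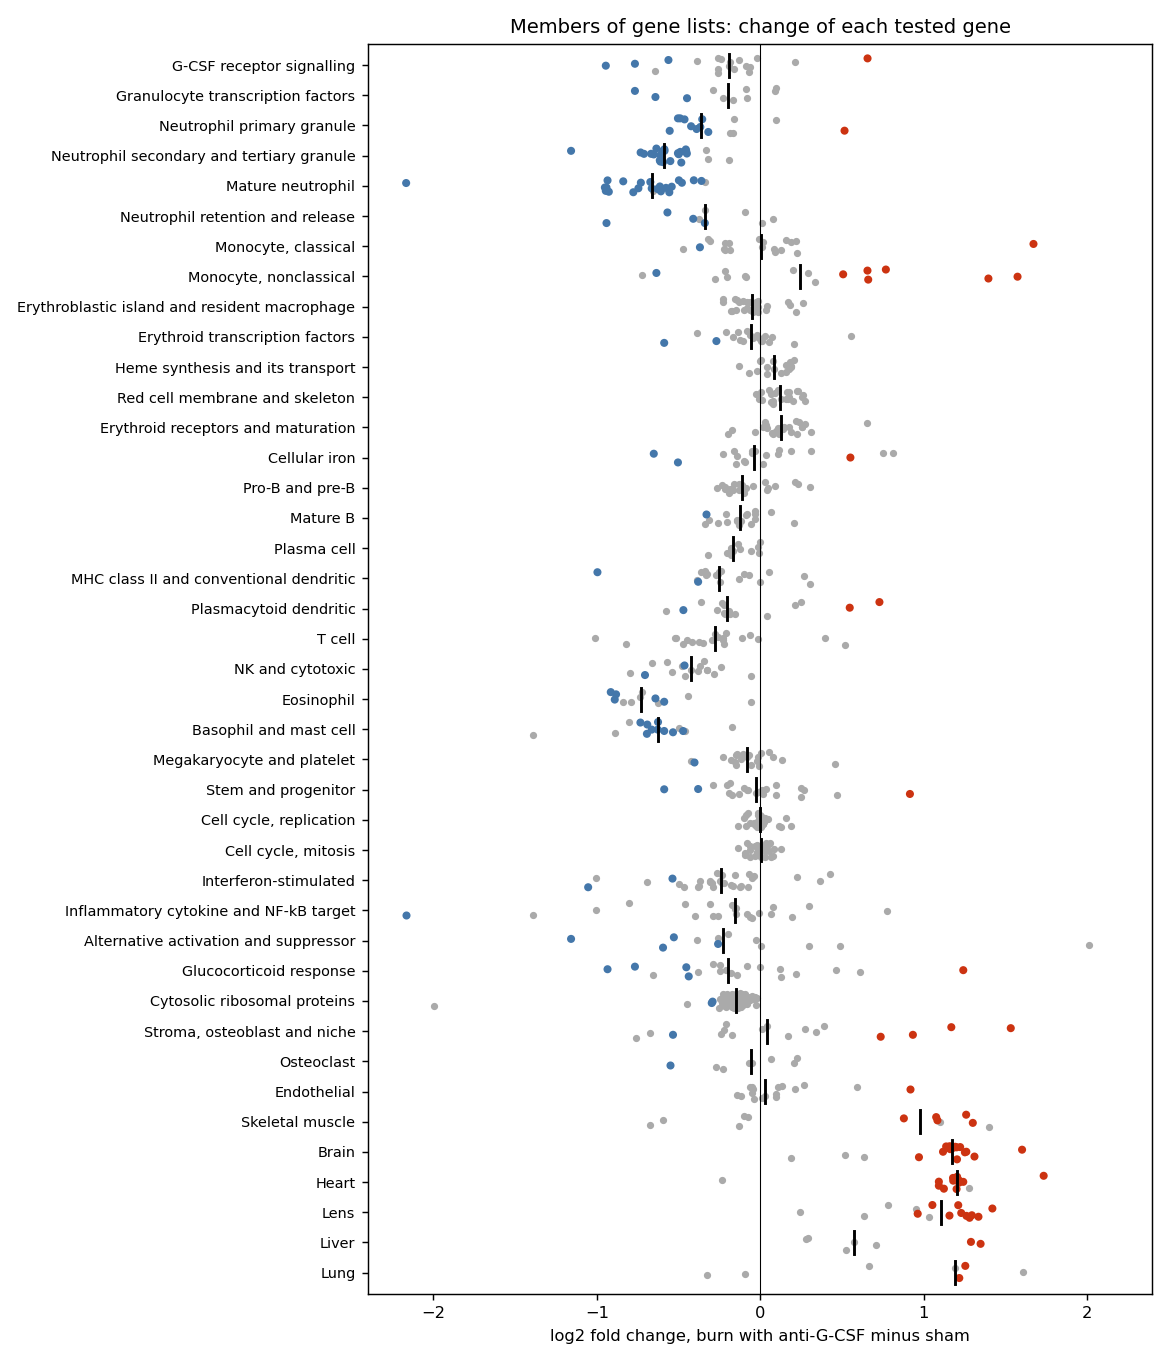
Log2 fold change of burn with anti-G-CSF over sham (x axis) for each tested gene of 41 gene lists (rows). Blue points were called lower, red points higher and grey points neither, and the black bar is the list's median, -0.66 for mature neutrophil genes and 1.18 for brain genes.

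Among called genes without overlap and with a mean level of 3 or more (log2 CPM), the largest falls were those of Il1b, Foxd4, Sycp2, Upp1, Lrg1, H2-Q10, Arg2 and Nlrp12. Il1b (chromosome 2, 129364578 to 129371139, minus strand, mm10), the inflammatory cytokine interleukin 1 beta, measured 57.9, 55.7, 54.5 and 37.7 CPM in sham and 8.39, 11.7, 12.3 and 13.3 CPM in anti-G-CSF. The fall was 2.17 on the log2 scale (-2.17 ± 0.29, edgeR adjusted p = 0.00412), and all 4 anti-G-CSF libraries lay far below sham. Without replicates 9 and 12 it was -2.10 (edgeR adjusted p = 0.106), and with the brain score as a covariate -1.75 (edgeR adjusted p = 0.551). In burn with isotype antibody Il1b spread from 28.5 to 83.0 CPM. It was the only gene of 22 tested inflammatory cytokine and NF-kB target genes that was called, against 11% of all tested genes called in either direction.

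Arg2, the mitochondrial arginase, measured 18.3, 16.9, 17.3 and 16.4 CPM in sham and 5.99, 7.11, 9.75 and 7.97 CPM in anti-G-CSF. It fell by 1.16 (-1.16 ± 0.14, edgeR adjusted p = 0.000458), and it passed both without replicates 9 and 12 (-1.03, edgeR adjusted p = 0.00681) and with the brain score as a covariate (-1.21, edgeR adjusted p = 0.0138). Nlrp12, a NOD-like receptor of myeloid cells, went from 36.3 ± 1.51 to 16.7 ± 4.16 CPM (-1.12 ± 0.13, edgeR adjusted p = 0.000323). Lrg1, a secreted leucine-rich glycoprotein of neutrophil granules, measured 141, 119.9, 211 and 114 CPM in sham and 52.5, 70.7, 74.6 and 63.8 CPM in anti-G-CSF, with 452 ± 69.1 CPM in burn with isotype antibody. The uridine phosphorylase gene Upp1 measured 5.62 ± 1.63 CPM in sham, 2.41 ± 0.118 CPM in anti-G-CSF and 30.0 ± 3.64 CPM in burn with isotype antibody. H2-Q10, a class I histocompatibility gene, changed by -1.16 ± 0.19, and its counts are uncertain because near-identical class I genes share reads. The forkhead gene Foxd4 changed by -1.33 ± 0.25 and the meiosis gene Sycp2 by -1.28 ± 0.26. Neither these nor Lrg1, Upp1 and H2-Q10 passed without replicates 9 and 12. Ifitm1, an interferon-induced membrane protein chosen after its values were seen, was the other gene called lower with the covariate (-1.01, edgeR adjusted p = 0.0157) and changed by -1.08 ± 0.12 without it.

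**Figure D4:**
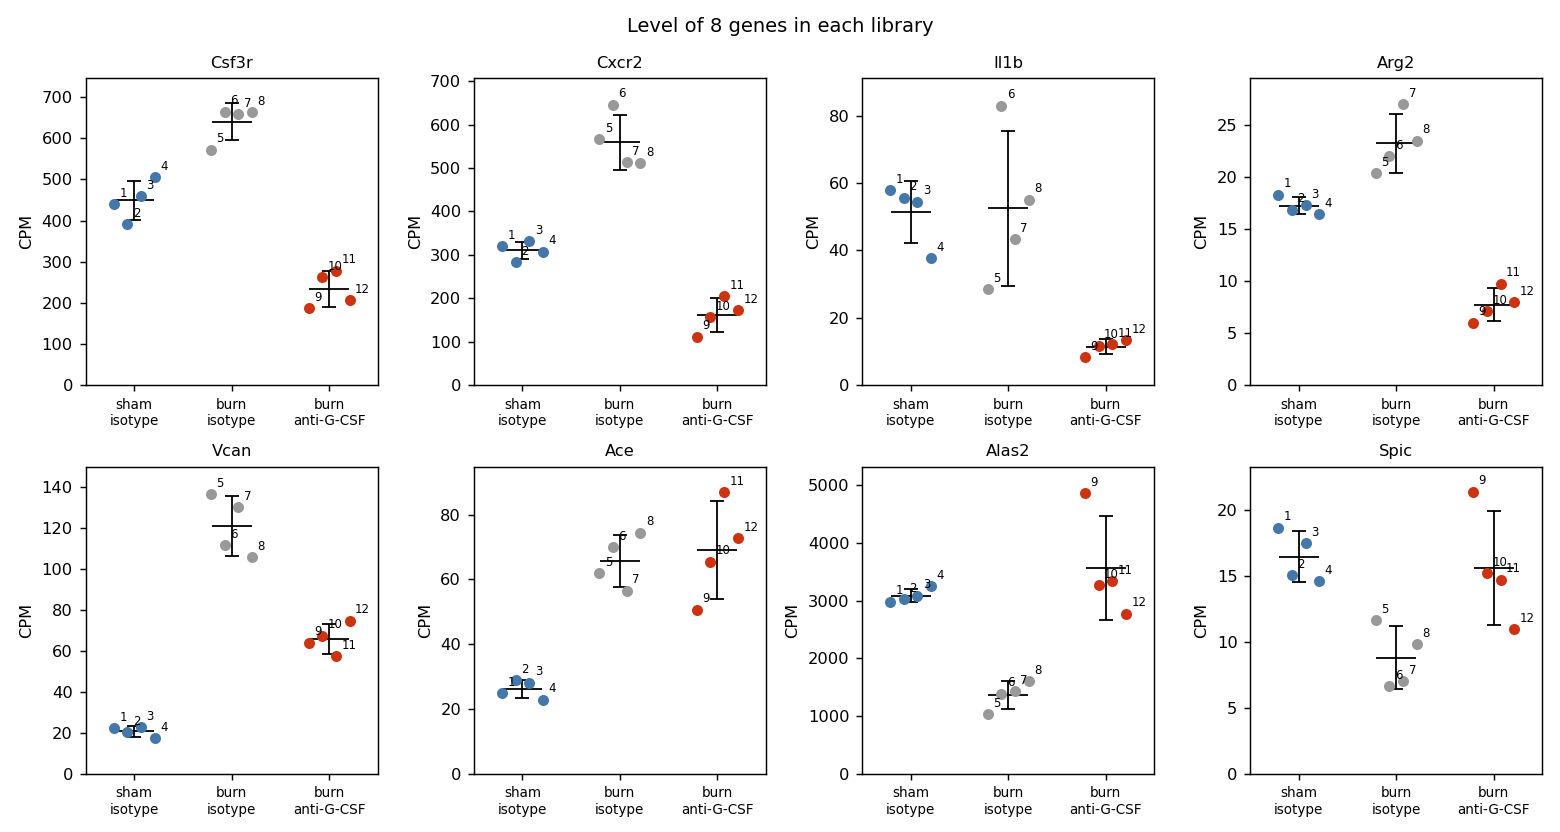
CPM (y axis) of Csf3r, Cxcr2, Il1b, Arg2, Vcan, Ace, Alas2 and Spic in each of the 12 libraries, numbered by replicate, with the mean and SD of each group of 4. Csf3r, Cxcr2, Il1b and Arg2 lie below sham and Vcan and Ace above sham in all 4 anti-G-CSF libraries, while Alas2 and Spic overlap with sham.

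Many genes of other granulocytes were also called lower, against 3.91% of all tested genes. Of 15 tested basophil and mast cell genes 9 were called lower and 0 higher, with a median of -0.63, and of 12 eosinophil genes 5 were called lower and 0 higher, with a median of -0.73. Mcpt8, a basophil protease, measured 142, 105, 112 and 127 CPM in sham replicates 1 to 4 and 60.9, 68.4, 86.8 and 76.4 CPM in anti-G-CSF replicates 9 to 12. The groups did not overlap (-0.73 ± 0.12, edgeR adjusted p = 0.00453). Prss34, another basophil protease, changed by -0.69 ± 0.12 and still passed without replicates 9 and 12 (-0.60, edgeR adjusted p = 0.0466).

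Prg2, the eosinophil major basic protein, measured 2988, 2285, 2976 and 4461 CPM in sham and 1270.0, 1669, 2297 and 1659 CPM in anti-G-CSF. Replicate 11 lay just above sham replicate 2, so the groups overlapped (-0.88 ± 0.21, edgeR adjusted p = 0.0231), and the call was lost without replicate 1, 4, 9 or 12. Burn with isotype antibody had 1738 ± 300.1 CPM of Prg2 and 75.2 ± 9.40 CPM of Mcpt8, against 1724 ± 425 and 73.1 ± 11.1 CPM in anti-G-CSF. Both burn groups are compared with the same sham libraries, so their changes against sham are not independent. The eosinophil count was 2 without replicate 1, 9 or 12, 3 without replicate 4 and 10 without replicate 11, and the basophil count was 5 without replicate 9. Without replicates 9 and 12 together the counts were 0 and 1, with medians of -0.54 and -0.56. Gata2, a transcription factor of basophils and stem cells, went from 32.8 ± 2.45 to 21.8 ± 1.94 CPM (-0.59 ± 0.11, edgeR adjusted p = 0.00705). Csf1, the macrophage growth factor gene placed on the basophil list, went from 20.9 ± 2.71 to 14.4 ± 2.12 CPM (-0.53 ± 0.13, edgeR adjusted p = 0.0188), a call lost without replicate 1, 2, 4 or 9.

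Several nonclassical monocyte genes were called higher, while few classical monocyte genes were called. Nonclassical monocytes patrol vessel walls and depend on the transcription factor Nr4a1, while classical monocytes carry Ly6C and enter inflamed tissue. Of 16 nonclassical monocyte genes 6 were called higher and 1 lower, with a median of 0.25, against 7.09% of all tested genes called higher. The changes were positive in 9 of the 16 and negative in 7, and the summed level overlapped between groups, at 1515 ± 83.1 CPM in sham and 1404 ± 254 CPM in anti-G-CSF. The 1 called lower was Pglyrp1, which is also a granule gene. Of 20 classical monocyte genes 1 was called higher, Vcan, and 1 lower, Ly6c2, with a median of 0.0019. Ly6c2 overlapped between groups and lost its call without replicate 1, 2, 4, 9, 10 or 12 (-0.37 ± 0.11, edgeR adjusted p = 0.0438).

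Vcan (chromosome 13, 89655310 to 89742512, minus strand, mm10), the matrix proteoglycan versican made by monocytes, measured 22.3, 20.2, 22.8 and 17.3 CPM in sham and 63.9, 67.4, 57.2 and 74.7 CPM in anti-G-CSF. It rose by 1.67 ± 0.11 (edgeR adjusted p = 2.12e-07), and every anti-G-CSF library lay above every sham library. Vcan was called under every alternative run, including the brain covariate (1.53) and the test against a 1.5-fold change. Burn with isotype antibody had 121 ± 14.7 CPM, so the anti-G-CSF mean lay between those of sham and burn with isotype antibody.

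Ace, angiotensin-converting enzyme, measured 24.9, 28.9, 28.2 and 22.9 CPM in sham and 50.6, 65.5, 86.9 and 72.8 CPM in anti-G-CSF. It rose by 1.40 ± 0.14 (edgeR adjusted p = 0.000135) and was likewise called under every alternative run. Cd300e, an activating receptor of monocytes, rose from 4.02 ± 1.28 to 12.0 ± 2.83 CPM (1.57 ± 0.26, edgeR adjusted p = 0.00533) and missed the threshold with the covariate (1.92, edgeR adjusted p = 0.0635). Ace, Vcan and Cd300e had means of 65.7 ± 8.03, 121 ± 14.7 and 12.9 ± 4.25 CPM in burn with isotype antibody.

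Treml4, a receptor of nonclassical monocytes, rose by 0.66 ± 0.12 and Nr4a1 by 0.77 ± 0.15 (edgeR adjusted p = 0.00742 and 0.0111), and both were called without each library, without replicates 9 and 12 and with the covariate. Adgre4, an adhesion receptor of the same cells, rose by 0.66 ± 0.17, a call lost without replicate 1, 2, 3 or 4. The nonclassical count was 5 without replicates 9 and 12 and 4 with the brain score as a covariate. Among the other largest rises, Tppp3, a tubulin polymerisation protein, rose by 1.52 ± 0.20, the muscle enolase gene Eno3 by 1.08 ± 0.12 and S1pr5, a sphingosine-1-phosphate receptor, by 1.02 ± 0.24, and all 3 were also called with the covariate. Eno3 is also on the skeletal muscle list, some of whose genes were called higher as given above. S1pr5 lost its call without replicate 1 or 4 (edgeR adjusted p = 0.0594 and 0.0551). Smpdl3b, Hfe and Gngt2, chosen after their values were seen, completed the 10 genes called higher with the covariate, at 1.99, 1.03 and 0.94. Bcat1, an aminotransferase of branched-chain amino acids, rose by 0.89 ± 0.22, a call lost without replicate 1, 2, 9 or 12.

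Genes of red cell production and of island macrophages were close to sham. None of the 28 island macrophage genes, 17 heme synthesis genes, 24 red cell membrane genes or 24 erythroid receptor and maturation genes was called in either direction by edgeR, against 11% of all genes tested. A p that misses the threshold does not show equal levels, so the 95% interval of each change was set against a 1.5-fold change in either direction. The interval lay within 1.5-fold for 59.7% of all tested genes. It did so for 26 of the 28 macrophage genes, 17 of 17 heme genes, 24 of 24 membrane genes and 22 of 24 receptor and maturation genes. The medians were -0.05, 0.08, 0.12 and 0.13. The median of the macrophage list changed sign with library-size scaling (0.03).

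Spic, the transcription factor of island macrophages, measured 18.7, 15.1, 17.5 and 14.6 CPM in sham replicates 1 to 4 and 21.4, 15.2, 14.7 and 11 CPM in anti-G-CSF replicates 9 to 12. The groups overlapped, with replicate 9 highest and replicate 12 lowest, and the change was -0.08 ± 0.20 (95% interval -0.50 to 0.33, edgeR adjusted p = 0.853). Burn with isotype antibody had 8.81 ± 2.38 CPM. Vcam1, the adhesion molecule of island macrophages, measured 296 ± 26.6 and 266 ± 32.1 CPM (95% interval -0.37 to 0.06), and the heme oxygenase gene Hmox1 measured 204 ± 25.3 and 202 ± 50.8 CPM (95% interval -0.33 to 0.30). The iron exporter gene Slc40a1 measured 293 ± 6.35 and 251 ± 31.4 CPM, with libraries that did not overlap and an edgeR adjusted p of 0.147.

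Alas2, the first enzyme of red cell heme synthesis, measured 2984, 3024, 3085 and 3249 CPM in sham and 4867, 3271, 3343 and 2774 CPM in anti-G-CSF. Replicate 9 was the highest of these libraries and replicate 12 the lowest, and the change was 0.21 ± 0.15 (95% interval -0.11 to 0.53, edgeR adjusted p = 0.437). The erythroid transcription factor genes Gata1 and Klf1 measured 106 ± 8.94 and 169 ± 19.8 CPM in sham and 101 ± 2.41 and 163 ± 17.0 CPM in anti-G-CSF. Epor, the erythropoietin receptor, measured 84.9 ± 2.72 and 87.2 ± 11.7 CPM. The iron importer gene Tfrc measured 964 ± 60.0 and 1195 ± 162 CPM (0.31 ± 0.10, edgeR adjusted p = 0.0587), and it passed the threshold without replicate 11, under upper-quartile or library-size scaling, in the DESeq2 test and with the genes that follow the brain score left out. Burn with isotype antibody had 1360.5 ± 239.8 CPM of Alas2, 64.1 ± 13 CPM of Gata1 and 49.8 ± 11.2 CPM of Epor.

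Replicate 9 had the highest sums of heme synthesis and red cell membrane genes, though the gap ratio described below flagged neither sum. Its heme synthesis genes summed to 12409 CPM, against 9292, 8815 and 8113 CPM in replicates 10, 11 and 12 and 8489 to 8802 CPM in sham. Its red cell membrane genes summed to 16378 CPM against 11472 to 13134 CPM in the other anti-G-CSF libraries, and its mature neutrophil genes summed to 17127 CPM, the lowest of the 12 libraries. Without replicates 9 and 12 the medians of the macrophage, heme, membrane and receptor lists were -0.11, 0.05, 0.06 and 0.01, and none of their genes was called. Of the 20 erythroid transcription factor genes 2 were called lower, Gata2 and Lyl1, against 3.91% of all tested genes. Their list's median of -0.06 also changed sign with library-size scaling (0.03). Lyl1 changed by -0.27 ± 0.07 (edgeR adjusted p = 0.0243), a call lost without replicate 1, 2, 4, 9, 10 or 12. Hemoglobin genes could be tested for only 3 of 12 in the table, and the rest had too few counts to pass the filter. The untested ones included the globin genes Hba-a1, Hba-a2, Hbb-bs and Hbb-bt. Their few counts need not mean low levels, because near-identical genes may be miscounted, and this was not tested. The 3 tested genes changed by 0.09 to 0.66 with a median of 0.21. None was called, and the interval lay within 1.5-fold for 1 of them.

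**Figure D5:**
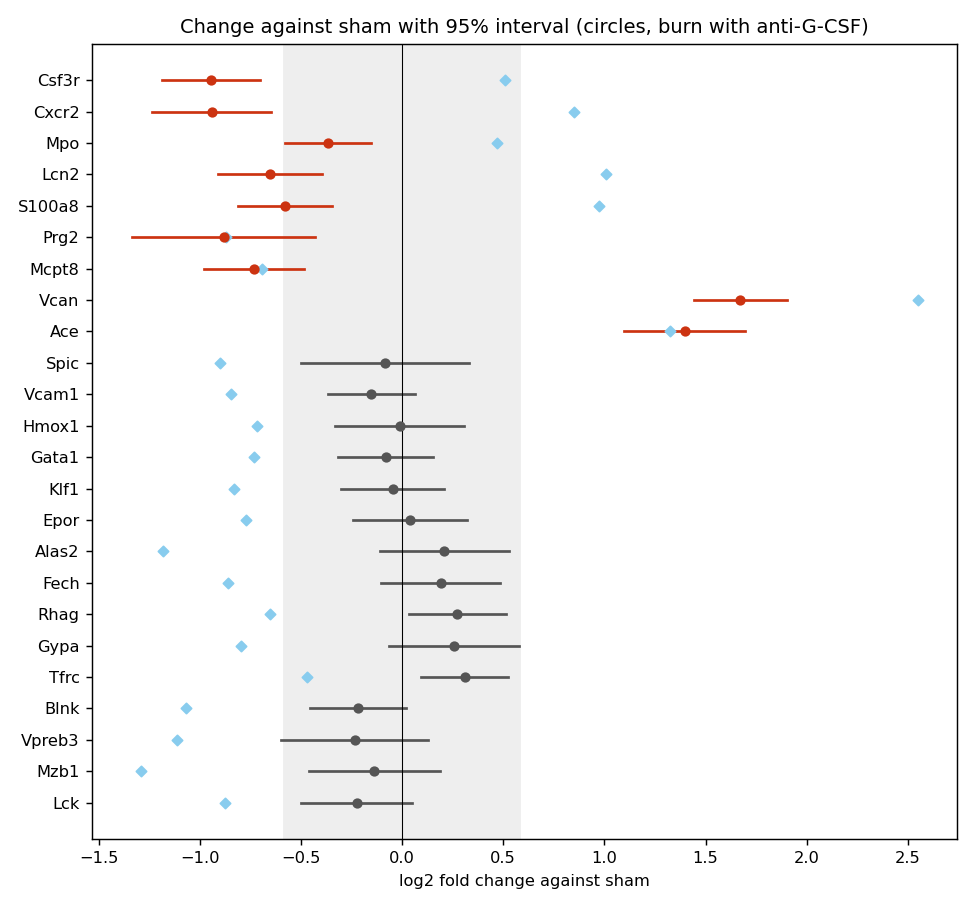
Log2 fold change against sham (x axis) of 24 named genes (rows) in burn with anti-G-CSF, as circles with their 95% interval, red where called and grey where not, and in burn with isotype antibody, as blue diamonds. The shaded band marks changes within 1.5-fold, which holds the whole interval of Spic, Gata1, Klf1, Epor and Alas2. Both sets of changes use the same 4 sham libraries.

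Lymphoid genes were mostly not called, with wider intervals in the rarer cell types. None of 23 pro-B and pre-B genes, 13 plasma cell genes or 21 T cell genes was called by edgeR, against 11% of all tested genes. Their medians were -0.11, -0.17 and -0.28. The interval lay within 1.5-fold for 15 of 23 pro-B and pre-B genes and 8 of 13 plasma cell genes, near the 59.7% of all tested genes. It did so for only 2 of 21 T cell genes, so for T cells a change of that size was not bounded. Blnk, an adaptor of the pre-B receptor, measured 104 ± 4.09 and 89.5 ± 12.5 CPM, and 49.6 ± 8.87 CPM in burn with isotype antibody. Of 17 NK and cytotoxic genes 2 were called lower, against 3.91% of all tested genes, with a median of -0.43 and all 17 negative. They were the granule protein gene Nkg7 and the granzyme gene Gzma, whose libraries overlapped between groups. Both calls were lost without replicate 1, 2, 4, 9 or 12, and that of Gzma also without replicate 3 or 10. Of 18 mature B cell genes 1 was called lower, near the 3.91% of all tested genes. It was the tetraspanin gene Cd37, a call lost without replicate 1, 2, 3, 4, 9 or 12.

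Among antigen-presenting cells, 2 of 19 class II and conventional dendritic genes were called lower, against 3.91% of all tested genes. Cd209a, a lectin of dendritic cells and monocytes, went from 22.1 ± 4.6 to 11.1 ± 2.12 CPM (a fall of nearly 1 log2 unit, SE 0.18, edgeR adjusted p = 0.00705), and it measured 8.73 ± 2.03 CPM in burn with isotype antibody. Flt3, the growth factor receptor of dendritic precursors, changed by -0.38 ± 0.12, just under the threshold, a call lost without replicate 1, 2, 3, 4, 9, 10 or 12. Of 16 plasmacytoid dendritic genes 2 were called higher, Pacsin1 and Cox6a2, and 1 lower, Il3ra. Over all tested genes 7.09% were called higher and 3.91% lower. The higher count was 0 without replicate 1, 2, 3, 4, 9 or 12, and Il3ra lost its call without replicate 1, 2, 4, 9 or 12. Pacsin1, which neurons also make, followed the brain score, and Cox6a2 is also a heart and muscle gene.

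Genes of cell division lay close to sham. All 29 replication genes and all 29 mitosis genes had intervals within 1.5-fold and none was called by edgeR, with medians of 0.0014 and 0.0039. Over all tested genes 59.7% had intervals within 1.5-fold and 11% were called in either direction. Platelet genes gave 1 of 21 called lower, Nbeal2, needed for platelet granules (-0.41 ± 0.10), a call lost without replicate 4, 9 or 12. That count lies near the 3.91% of all tested genes called lower. Against 7.09% of all tested genes called higher and 3.91% called lower, stem and progenitor genes gave 1 of 23 called higher and 2 lower. Tek, the angiopoietin receptor of stem cells and endothelium, was the 1 higher (0.92 ± 0.26), a call lost without replicate 1, 2, 3, 4, 9 or 12, and Gata2 and Flt3 were the 2 lower.

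The interferon, inflammatory and glucocorticoid lists are given beside the 3.91% of all tested genes called lower. Of 30 interferon-stimulated genes 2 were called lower, Ifit2 and Ifit3, and the count was 0 without replicate 1, 3, 9 or 12. Ifit3 measured 20.9, 9.49, 8.93 and 8.56 CPM in sham and 4.94, 6.79, 5.30 and 6.07 CPM in anti-G-CSF. Sham replicate 1 lay far above the rest, and the call was lost without any 1 of the 8 libraries. Of 20 glucocorticoid response genes 4 were called lower and 1 higher, and 1 was called lower without replicate 1. Zfp36, which destabilises inflammatory messenger RNAs, went from 112 ± 6.61 to 82.7 ± 9.06 CPM (-0.44 ± 0.08, edgeR adjusted p = 0.00801). Of 12 tested genes of alternative activation and suppression 4 were called lower, among them Arg2 and Entpd1, an ectonucleotidase of immune cells (-0.53 ± 0.08, edgeR adjusted p = 0.00412), and the count was 2 without replicate 1, 2 or 9. All 78 tested cytosolic ribosomal protein genes had negative changes, with a median of -0.15, and 2 were called lower. The count was 0 without replicate 4 and 1 without replicate 1, 2, 9, 10 or 12. With the brain score as a covariate 45 of the 78 changes were positive, with a median of 0.011. Reads of ribosomal protein genes are shared with many pseudogenes, so their counts are uncertain.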

How the data were processed

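Polyadenylated RNA of 12 marrow libraries was sequenced, and the deposited values are whole-number counts per gene, not normalised, made by the authors. TopHat2 and the genome build mm10 are named per the submitters' processing notes, while the counting program, its strand setting and its annotation were not given in the sources used here. Genes that overlap, lie antisense or have near-identical copies may therefore be miscounted. Spreadsheet dates were turned back into 27 symbols, 11 symbols were blank, and 0 genes had mitochondrial names. Total counts ran from 18780399 to 25708084 over the 12 libraries. Chi-square per degree of freedom was 5.81 to 31.9 for the 12 library pairs within the compared groups, and no pair differed by as little as sampling noise.

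Genes were filtered with filterByExpr, scaled with TMM and fitted with edgeR 4.0.16 (R 4.3.3) by robust quasi-likelihood on all 12 libraries with 1 mean per group and 9 residual degrees of freedom. Tests were 2-sided with Benjamini-Hochberg adjustment over 15283 genes. The SE was derived from F and the fold change. Slopes on the brain score were fitted with limma 3.58.1 on log2 CPM with a prior count of 2. Alternatives were other scalings, other filters, DESeq2 1.42.0, limma-voom, fewer libraries, the brain score as a covariate or its followers left out, the 20 most abundant genes left out of scaling, and other thresholds. The gene tests and the slope fit were also run on simulated data. In the simulated counts each gene varied on its own, so they could not test calls where many genes shift together. Python 3.11.15, pandas 2.3.3 and matplotlib 3.10.9 made sums and plots.

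Members and lists were chosen with earlier results of these data known. The text names 13 genes given in advance of the fit (Spic, Csf3, Csf3r, Socs3, Stat3, Gata1, Klf1, Epor, Alas2, Vcam1, Hmox1, S100a8 and Vcan) and the 8 largest rises and falls past the threshold. Those averaged at least 3 on the log2 CPM scale, had groups without overlap and did not follow the brain score. They were no unnamed model or receptor segment and were on no list of another organ, except that skeletal muscle was not screened. Eno3 is a skeletal muscle list gene. Of the rises, 1 is not reported here. It also names, from each list, up to 4 genes with the lowest p, and 3 abundant brain, heart and lens genes. Ngp, Ifitm1, Smpdl3b, Hfe, Gngt2, Il1r2, Cxcl12, Ttr, Alb and Mb were chosen after their values were seen.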

Additional observations from a re-analysis of the deposited data

Results flagged for a closer look

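In 7 of 270 groups of 4 libraries tested, 1 library lay apart from the other 3 by Dixon's gap ratio, the gap to the nearest library over the group's range; chance flags about 1 in 20 groups. In sham these were Il1b, lowest in replicate 4 (37.7 CPM, ratio 0.83), Tfrc, highest in replicate 1 (1054 CPM, ratio 0.913), Nkg7, lowest in replicate 3 (35.5 CPM, ratio 0.876), and Ifit3, highest in replicate 1 (20.9 CPM, ratio 0.924). In anti-G-CSF they were Lck, a T cell kinase, highest in replicate 11 (32.6 CPM, ratio 0.929), Entpd1, lowest in replicate 12 (44.2 CPM, ratio 0.858), and Pacsin1, highest in replicate 12 (37.6 CPM, ratio 0.95).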

How the results depend on the processing

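Counts of called genes depended on the libraries, more than on the scaling. With 1 library left out, genes called higher ran from 148 (without replicate 1) to 1414 (without replicate 11), against 1083, and genes called lower from 177 (without replicate 9) to 857 (without replicate 11), against 598. The higher and lower counts were 148 and 238 without replicate 1, 214 and 229 without replicate 2, 295 and 253 without replicate 4, 172 and 177 without replicate 9 and 220 and 276 without replicate 12, and 638 genes were higher without replicate 3. They were 18 and 17 without replicates 9 and 12 together, 10 and 2 with the brain score as a covariate, 50 and 92 at an adjusted p of 0.01, and 2 and 0 in edgeR's test against a 1.5-fold change. Library-size scaling gave 376 lower, the DESeq2 Wald test 996 lower, leaving the 20 most abundant genes out of scaling 1022 lower, limma-voom 713 higher, and leaving out the genes that follow the brain score 340 higher. The share of calls that were higher was 64.4%, and it was 77.5% with library-size scaling, 48.8% without the 20 abundant genes in scaling and 43.1% without the genes that follow the score. Genes that follow the score numbered 902 to 1276 with 1 library left out, against 1282. With the covariate Camk2a (-0.011), Actc1 (-0.020), Crybb2 (-0.14) and Mb (-0.030) turned negative, and no other named gene that was called changed sign under any alternative. Of 86 genes checked by name and called, 43 were called without each of the 8 libraries in turn, 19 without replicates 9 and 12, and 86 by DESeq2. No paired analysis was possible because the labels give no pairing between the groups. With 4 libraries a side, T and NK cell genes had intervals too wide to bound a 1.5-fold change.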
